A study of Mus musculus with 14 samples.

Results

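The large ribosomal subunit of the mouse carries most of the pseudouridine positions that were listed in this Pseudo-seq data set. All rows of the deposited peak value table that belong to 28S rRNA (mm_28S_rRNA, 66 positions) or 5.8S rRNA (mm_5.8S_rRNA, 2 positions) are described here, 68 positions in all, and the other 39 of the table lie in 18S rRNA. They were chosen by the rRNA they belong to, not by their values. The RNA came from whole spleens of C57BL/6J mice, 3 Naf1 heterozygous animals (called HET in the labels, Naf1+/- in the series title; columns E, F and G) and 4 wild-type animals (columns A, B, C and D). Each animal gave 1 library made with 0.4 M CMC and 1 made without it, and the table gives 1 peak value per animal and position. The sources used here do not give age, sex, the kind of Naf1 allele, litters or batches. The table holds ribosomal RNA positions alone, so neither Naf1 RNA nor markers of spleen cells could be used to check the labels.

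Pseudouridine is a rotated isomer of uridine, linked to its sugar through carbon instead of nitrogen, with an extra hydrogen-bond donor. In eukaryotic rRNA it is made chiefly by H/ACA ribonucleoproteins, in which a guide RNA base-pairs with the target and dyskerin is the enzyme. NAF1 binds dyskerin while these particles are being assembled and is later exchanged for GAR1. 28S rRNA forms the body of the large subunit and its peptidyl transferase centre, where peptide bonds are made, and helix 69, a hairpin of 28S that contacts the small subunit and the tRNAs, is a known home of conserved pseudouridines. 5.8S rRNA is base-paired to the 5′ part of 28S. The 66 positions of 28S are described in 4 windows along the molecule, the first up to position 3000 (listed positions 45 to 2596), the second with listed positions 3293 to 3540 (taken to hold helix 69), the third with 3576 to 4231 (taken to hold the peptidyl transferase centre) and the fourth with 4280 to 4657. No rRNA sequence was used, so the placing of these structures and the bases around each site were not checked, and positions are given as deposited.

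Most of the listed large-subunit positions had a peak value above 0 in every animal, over a wide range of levels. The peak value is a score of the authors without a stated unit or formula, so a level of 10 is not a percentage of modified molecules, and values below 0 occur. Its 0 is set by an unstated formula, so a score given as a percentage of the wild-type score is not a ratio of modification. Over the 68 positions it ran from -11.1 to 28.2, and 51 of 476 values were below 0. It was above 0 in all 7 animals at 59 positions and at 1 or more in all 7 at 52, comprising 50 of 66 in 28S and both in 5.8S. It was below 0 in all 7 animals at 6 positions (28S 1581, 3414, 3418, 4183, 4221 and 4620) and in some animals only at 3 (28S 3371, 3474 and 3945). By the mean over the 7 animals, 7 of the 66 positions in 28S were below 0, 6 between 0 and 1, 17 between 1 and 5, 11 between 5 and 10, 22 between 10 and 20, and 3 at 20 or more. The 20 highest positions of 28S held 63.9% of the sum of its positive means, and the 5 highest 20.3%. The authors' pass mark was given to 53 of the 68, 51 in 28S and both in 5.8S. The lowest mean with the mark was 1.68 at 28S position 4204, and the highest without it was 1.11 at 28S position 3420.

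**Figure D1:**
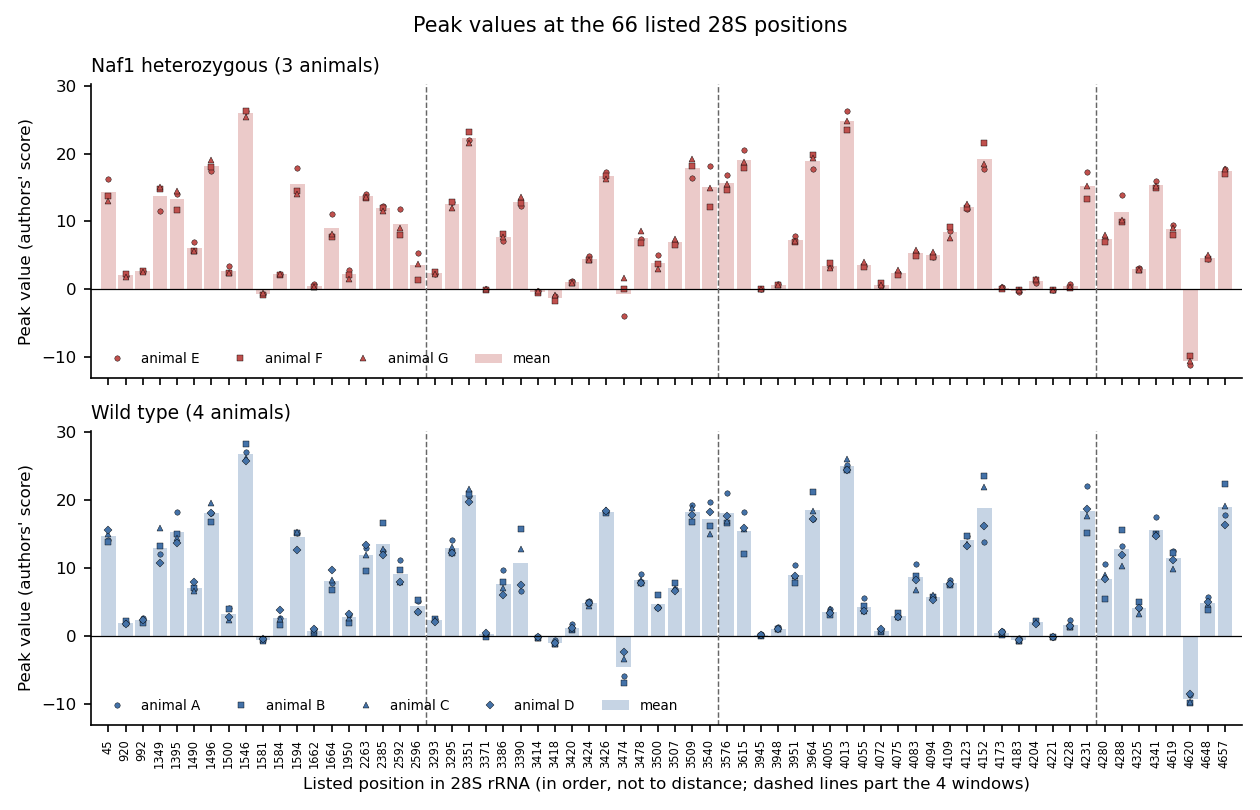
Peak values (authors' score, vertical axis) at the 66 listed positions of 28S rRNA in order along the molecule, for the 3 Naf1 heterozygous animals (top) and the 4 wild-type animals (bottom). Bars are means, symbols are single animals, and dashed lines part the 4 windows; positions 1546, 4013 and 3351 stand highest in both panels and position 4620 lowest.

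The strongest positions were 28S positions 1546, 4013 and 3351, by their means. By the mean over all 7 animals, 28S position 1546 came first at 26.5, then 28S position 4013 at 24.98 and 28S position 3351 at 21.4. The gaps of 1.48 and 3.6 between these 3 exceeded the SD shared by the neighbours within genotypes (0.981 and 0.952), although 4013 was above 1546 in heterozygous animal E and the 2 were close in wild-type animal C. From the third to the twelfth place, 28S positions 4152, 3964, 5.8S position 68, then 28S positions 4657, 1496, 3509, 3426, 4231 and 3576, no gap between neighbours in the order exceeded that SD. Spread between animals of a genotype was wider at higher levels across the 68 positions (Pearson r 0.536, Spearman rho 0.688, a description over sites measured in the same 7 animals). The SD was smaller among the heterozygotes at 42 of the 68 positions. The median SD over the 68 was 0.493 in heterozygotes and 0.793 in wild type. It was 0.371 and 0.746 in 18S, and 0.439 and 0.761 over the whole table. The SDs rest on 3 and 4 animals, the same ones at every position, and whether spread differs by genotype was not tested.

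The first window, up to position 3000, had 19 listed sites between positions 45 and 2596, 17 of them with the pass mark, and its genotype means lay within the spread between animals. Its mean peak value was 9.38, 8.34 and 8.6 in heterozygous animals E, F and G, against 9.28, 8.88, 8.9 and 8.7 in wild-type animals A, B, C and D, and the animals overlapped, with animal E above all 4 wild-type animals. The genotype means were 8.77 ± 0.542 in heterozygotes and 8.94 ± 0.243 in wild type (SD, n = 3 and n = 4, as for all means here), a difference of -0.165. The heterozygous mean was the lower one at 11 of the 19 (57.9%), against 70.1% of the table. The difference without heterozygous animal E was -0.469, without F 0.0527, and without wild-type animal A -0.0523, and with each animal's median over sites in place of the mean it was 1.32.

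At 28S position 1546, the highest of all, the peak value was 26.3, 26.3 and 25.4 in heterozygous animals E, F and G, against 27.1, 28.2, 26.2 and 25.8 in wild-type animals A, B, C and D. At position 1496 it was 17.5, 17.98 and 19.1 in E, F and G, against 18.2, 16.8, 19.5 and 18.04 in A, B, C and D. The genotypes overlapped at both, and animal B was the highest at 1546 but the lowest at 1496. Means at 1546 were 26.0 ± 0.497 in heterozygotes and 26.8 ± 1.08 in wild type, 97.01% of wild type (difference -0.803, or -0.334 without B and -0.516 without G), and at 1496 18.2 ± 0.824 in heterozygotes and 18.1 ± 1.1 in wild type. The lowest site, position 1581, had -0.675, -0.791 and -0.569 in the heterozygous animals, against -0.663, -0.656, -0.704 and -0.446 in the wild-type animals, below 0 throughout and with a difference of -0.0607.

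The most negative statistics of the window were at positions 1490 and 1395, which did not pass the adjusted threshold. Position 1490 had 6.91, 5.59 and 5.71 in E, F and G, against 6.93, 7.09, 6.58 and 7.88 in A, B, C and D, so that F and G lay below every wild-type animal and E among them. 28S position 1395 had 14.0, 11.6 and 14.5 in the heterozygous animals, against 18.2, 15.01, 14.4 and 13.7 in the wild-type animals, with A standing highest. Their differences were -1.05 (95% interval -2.13 to 0.0256, limma adjusted p = 0.256) and -1.95 (95% interval -5.03 to 1.13, limma adjusted p = 0.496), and the second was -0.985 without A and -1.09 without F. In the other direction, position 2263 had 14.01, 13.5 and 13.7 in E, F and G, against 12.9, 9.61, 11.95 and 13.4 in A, B, C and D. All 3 heterozygous animals were above all 4 wild-type animals there, with D close below them and B far below, and the difference was 1.75 (limma adjusted p = 0.405), or 0.964 without B. Position 992 had 2.69, 2.65 and 2.61 in the heterozygous animals, against 2.63, 1.94, 2.42 and 2.38 in the wild-type animals, where A lay among the heterozygotes and the difference was 0.308 (limma adjusted p = 0.408), or 0.173 without B.

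The other sites of the window overlapped between genotypes. Peak values at 45 averaged 14.4 ± 1.72 in heterozygotes and 14.6 ± 0.801 in wild type, differing by -0.279. At 920 the heterozygous mean was 2.05 ± 0.231 and the wild-type mean 1.96 ± 0.216, a gap of 0.0874. For position 1349 the means were 13.8 ± 1.97 in heterozygotes and 12.97 ± 2.16 in wild type (0.819). Of these, 1349 had the widest spread. Heterozygotes had 2.71 ± 0.561 at position 1500 and wild type 3.29 ± 0.922, -0.575 apart. Position 1584 averaged 2.24 ± 0.0802 in heterozygotes and 2.67 ± 0.887 in wild type, a difference of -0.432. Peak values at 1594 averaged 15.4 ± 2.06 in heterozygotes and 14.6 ± 1.26 in wild type, differing by 0.869. At 1594, wild-type animal D stood apart from the other wild-type animals.

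The sites further along the window, from 1662 to 2596, also overlapped. At 1662 the heterozygous mean was 0.503 ± 0.288 and the wild-type mean 0.786 ± 0.259, a gap of -0.283. For position 1664 the means were 9.001 ± 1.82 in heterozygotes and 8.13 ± 1.23 in wild type (0.875). Heterozygotes had 2.2 ± 0.671 at position 1950 and wild type 2.71 ± 0.624, -0.502 apart. Positions 1662 and 1664 are neighbours whose heterozygous differences had opposite signs. Position 2385 averaged 11.95 ± 0.369 in heterozygotes and 13.5 ± 2.14 in wild type, a difference of -1.52. Peak values at 2592 averaged 9.6 ± 1.97 in heterozygotes and 9.19 ± 1.59 in wild type, differing by 0.412. At 2596 the heterozygous mean was 3.53 ± 2.01 and the wild-type mean 4.38 ± 0.955, a gap of -0.854. Heterozygous animal F had 1.4 at 28S position 2596, the lowest of the 7, and without it the difference there was 0.211.

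The second window had 17 listed sites between positions 3293 and 3540, 12 with the pass mark, and its mean was nearly the same in both genotypes. It was 7.55, 7.44 and 7.78 in heterozygous animals E, F and G, against 7.72, 7.62, 7.64 and 7.27 in wild-type animals A, B, C and D. The genotype means were 7.59 ± 0.173 in heterozygotes and 7.56 ± 0.20 in wild type, a difference of 0.0278 that was small beside either SD. The heterozygous mean was the lower one at 13 of 17 sites (76.5%), against 70.1% of the table. The sign of the window's difference rests on position 3474, and without that site, an alternative chosen after seeing the data, the difference was -0.213. Over the 12 sites with the pass mark it was -0.222.

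Position 3351, the strongest site of the window, had 21.95, 23.2 and 21.5 in heterozygous animals E, F and G, against 20.6, 20.9, 21.7 and 19.8 in wild-type animals A, B, C and D. Animal C lay among the heterozygotes, and the difference of 1.48 (95% interval -0.0416 to 2.997, limma adjusted p = 0.256) was 0.978 without animal F. Position 3509 had 16.4, 18.2 and 19.2 in E, F and G, against 19.3, 16.7, 18.9 and 17.8 in A, B, C and D, with full overlap and a difference of -0.272. Position 3474 was the lowest of the window and also the most positive in its statistic, with -3.97, 0.114 and 1.66 in the heterozygous animals, against -5.86, -6.91, -3.36 and -2.32 in the wild-type animals. Values at 3474 were below 0 in every wild-type animal and in E, and above 0 in F and G. Its difference of 3.88 was the largest of the 68, but the SDs were 2.91 in heterozygotes and 2.13 in wild type, the 95% interval ran from -0.0231 to 7.79, and the site lacks the pass mark (limma adjusted p = 0.256).

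Position 3426 separated the genotypes most cleanly in the window. Its peak value was 17.2, 16.7 and 16.3 in heterozygous animals E, F and G, against 18.2, 18.2, 18.5 and 18.4 in wild-type animals A, B, C and D, a narrow band in wild type and 3 lower values. The means were 16.7 ± 0.467 in heterozygotes and 18.3 ± 0.145 in wild type, 91.5% of wild type, a difference of -1.56 (SE 0.484, 95% interval -2.72 to -0.403, limma adjusted p = 0.163), and it did not pass. Position 3371 had the other most negative statistic, with -0.0161, -0.0531 and 0.044 in E, F and G, against 0.301, -0.101, 0.261 and 0.44 in A, B, C and D, all close to 0 and overlapping through animal B (limma adjusted p = 0.424).

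The remaining sites of the window overlapped. For position 3293 the means were 2.36 ± 0.183 in heterozygotes and 2.35 ± 0.193 in wild type (0.017). Heterozygotes had 12.5 ± 0.441 at position 3295 and wild type 12.9 ± 0.895, -0.369 apart. Position 3386 averaged 7.67 ± 0.526 in heterozygotes and 7.71 ± 1.54 in wild type, a difference of -0.0361. Position 3390 had the second widest spread of the 68 sites, with 12.2, 12.7 and 13.5 in E, F and G, against 6.58, 15.7, 12.8 and 7.53 in A, B, C and D. The wild-type animals fell into a low pair, A and D, and a high pair, B and C, and the heterozygotes lay between A and D below and B above, with G also above C. Its means were 12.8 ± 0.676 in heterozygotes and 10.7 ± 4.36 in wild type, 2.14 apart. Peak values at 3414 averaged -0.357 ± 0.187 in heterozygotes and -0.202 ± 0.078 in wild type, differing by -0.156. At 3418 the heterozygous mean was -1.22 ± 0.498 and the wild-type mean -1.02 ± 0.226, a gap of -0.199. For position 3420 the means were 1.02 ± 0.169 in heterozygotes and 1.18 ± 0.38 in wild type (-0.164).

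The sites from 3424 to 3540 that are not given above ranged in level from low to high. Heterozygotes had 4.5 ± 0.343 at position 3424 and wild type 4.8 ± 0.253, -0.295 apart. Position 3478 averaged 7.59 ± 0.86 in heterozygotes and 8.26 ± 0.628 in wild type, a difference of -0.668. Peak values at 3500 averaged 3.93 ± 0.999 in heterozygotes and 4.63 ± 0.964 in wild type, differing by -0.694. At 3500, wild-type animal B stood above the other wild-type animals. At 3507 the heterozygous mean was 6.9 ± 0.466 and the wild-type mean 7.11 ± 0.513, a gap of -0.205. For position 3540 the means were 15.1 ± 3.03 in heterozygotes and 17.3 ± 2.08 in wild type (-2.19). Position 3540 was also wide in spread, with animal F the lowest of the 7 and A the highest.

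In the third window the mean over sites was lower in the heterozygous animals. The window had 22 listed sites between 3576 and 4231, 15 with the pass mark, and its mean was 7.58, 7.31 and 7.44 in heterozygous animals E, F and G, against 8.48, 7.85, 7.94 and 7.65 in wild-type animals A, B, C and D. Every heterozygous animal lay below every wild-type animal, the closest being E and D, 0.0694 apart. The genotype means were 7.44 ± 0.137 in heterozygotes and 7.98 ± 0.355 in wild type, 93.2% of wild type, a difference of -0.54. A lower heterozygous mean was seen at 16 of the 22 sites (72.7%), against 70.1% of the table. The animals overlapped once values were scaled by each animal's median (difference -0.692) and once sites within 5 nt of another were left out (-0.321). No p is given for this or any other window, because the windows were laid over these data with earlier results known.

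The strongest site of the window, position 4013, had 26.3, 23.5 and 24.8 in heterozygous animals E, F and G, against 25.2, 24.5, 26.1 and 24.5 in wild-type animals A, B, C and D, fully overlapping (24.9 ± 1.4 in heterozygotes and 25.1 ± 0.754 in wild type, -0.197 apart). Position 4152 had 17.8, 21.5 and 18.4 in E, F and G, against 13.8, 23.6, 21.9 and 16.1 in A, B, C and D. This was the widest spread of the 68 sites, and as at 3390 the wild-type animals A and D were low and B and C high; the means were 19.3 ± 2.01 in heterozygotes and 18.8 ± 4.63 in wild type, 0.411 apart. The lowest site, position 4183, had -0.435, -0.056 and -0.175 in the heterozygous animals, against -0.348, -0.746, -0.704 and -0.587 in the wild-type animals, below 0 in all 7, less so in heterozygotes, with A among them (0.374, limma adjusted p = 0.216).

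The most negative difference of all 68 sites was at position 4083, which carries the pass mark. Its peak value was 5.42, 4.87 and 5.81 in heterozygous animals E, F and G, against 10.6, 8.75, 6.83 and 8.22 in wild-type animals A, B, C and D, without overlap and with C the nearest wild-type animal. The means were 5.37 ± 0.474 in heterozygotes and 8.6 ± 1.57 in wild type, 62.4% of wild type, -3.24 apart (SE 0.849, 95% interval -5.26 to -1.21, limma adjusted p = 0.151). Position 4228 had 0.754, 0.228 and 0.298 in E, F and G, against 2.29, 1.33, 1.38 and 1.39 in A, B, C and D, again without overlap, and with A far above the other wild-type animals. The difference of -1.17 (95% interval -1.83 to -0.508) had the lowest adjusted p of the 68 sites (limma adjusted p = 0.125), which is not past the threshold, and the site lacks the pass mark. Among sites with a level above 0, the most positive statistic of the window was at position 3615, with 20.5, 17.9 and 18.7 in E, F and G, against 18.2, 12.01, 15.7 and 15.9 in A, B, C and D. Wild-type animal A lay above F there, and the difference was 3.59 (95% interval 0.00446 to 7.18, limma adjusted p = 0.256).

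Another 3 sites of the window without overlap are named here after their values were seen. Position 4123 had 11.8, 12.01 and 12.6 in E, F and G, against 14.7, 14.7, 13.6 and 13.2 in A, B, C and D, and 86.3% of the wild-type mean (difference -1.92, limma adjusted p = 0.163). Position 4204 had 0.876, 1.42 and 1.54 in the heterozygous animals, against 1.88, 2.19, 2.07 and 1.81 in the wild-type animals (-0.707, limma adjusted p = 0.151), with E the lowest. Position 3948, which lacks the pass mark, had 0.831, 0.651 and 0.591 in E, F and G, against 1.24, 1.02, 0.982 and 0.959 in A, B, C and D (-0.358, limma adjusted p = 0.163). At all 3 the heterozygous animals lay below the wild-type animals, and none passed the threshold.

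The other sites of the window overlapped between genotypes. Heterozygotes had 15.7 ± 1.08 at position 3576 and wild type 18.1 ± 2.06, -2.39 apart. Position 3945 averaged 0.0106 ± 0.0418 in heterozygotes and 0.133 ± 0.107 in wild type, a difference of -0.123. Peak values at 3951 averaged 7.3 ± 0.497 in heterozygotes and 8.94 ± 1.09 in wild type, differing by -1.64. Position 3951 lies 3 nt from 3948, and both had lower heterozygous means. At 3964 the heterozygous mean was 18.96 ± 1.07 and the wild-type mean 18.6 ± 1.86, a gap of 0.405. For position 4005 the means were 3.43 ± 0.404 in heterozygotes and 3.58 ± 0.399 in wild type (-0.149). Heterozygotes had 3.61 ± 0.376 at position 4055 and wild type 4.3 ± 0.886, -0.686 apart. Position 3964 was the only one of these with a higher heterozygous mean. Position 4072 averaged 0.691 ± 0.166 in heterozygotes and 0.77 ± 0.22 in wild type, a difference of -0.0789. Peak values at 4075 averaged 2.43 ± 0.349 in heterozygotes and 2.98 ± 0.235 in wild type, differing by -0.552.

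Toward the 3′ end of the window the pattern was mixed. At 4094 the heterozygous mean was 4.98 ± 0.413 and the wild-type mean 5.69 ± 0.304, a gap of -0.709. For position 4109 the means were 8.42 ± 0.788 in heterozygotes and 7.82 ± 0.322 in wild type (0.594). Heterozygotes had 0.249 ± 0.16 at position 4173 and wild type 0.453 ± 0.259, -0.204 apart. Of these, 4109 had a higher heterozygous mean. Position 4221 averaged -0.142 ± 0.00784 in heterozygotes and -0.148 ± 0.0268 in wild type, a difference of 0.00617. Peak values at 4231 averaged 15.3 ± 1.99 in heterozygotes and 18.4 ± 2.88 in wild type, differing by -3.12. 28S position 4231, a strong site 3 nt from 4228, was highest in wild-type animal A at 22.1 and lowest in heterozygous animal F at 13.3, the genotypes overlapped, and the difference was -1.88 without A.

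The fourth window, at the 3′ end of 28S, had the largest difference of the 4 on the deposited scale. With log2 of the value plus 1, values below 0 being set to 0, the third was larger (-0.16, against -0.14). On that scale position 4620 entered the fourth window's mean as 0. The heterozygous mean was lower at all 8 listed sites (4280 to 4657), 7 of which carry the pass mark, against 70.1% of the table. Position 4620, which lacks the mark, was below 0 in every animal. Without wild-type animal A the difference was 0.429 at 4341 and 0.129 at 4648. The window's mean was 7.61, 6.81 and 7.18 in heterozygous animals E, F and G, against 9.11, 8.66, 7.71 and 7.88 in wild-type animals A, B, C and D. No heterozygous animal reached the wild-type range, the closest being E and C, 0.103 apart. The genotype means were 7.2 ± 0.401 in heterozygotes and 8.34 ± 0.658 in wild type, 86.3% of wild type, a difference of -1.14. Position 4620, at -10.5 in heterozygotes and -9.25 in wild type, enters both means and so the percentage. Leaving out 1 animal at a time, the window's difference ran from -1.35 without wild-type animal C to -0.888 without wild-type animal A. Over the 7 sites with the pass mark the difference was -1.13, and the genotypes' animals then overlapped, as they did without sites within 5 nt of another (-0.884).

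Position 4657, the strongest site of the window, had 17.7, 16.9 and 17.7 in heterozygous animals E, F and G, against 17.8, 22.4, 19.2 and 16.3 in wild-type animals A, B, C and D. Animal B was far above the rest and D below every heterozygote, and the difference was -1.48 (17.4 ± 0.439 in heterozygotes and 18.9 ± 2.58 in wild type), or -0.325 without B and -2.34 without D. Position 4341 had 15.9, 14.9 and 15.2 in E, F and G, against 17.6, 14.95, 15.1 and 14.7 in A, B, C and D, a difference of -0.235 that was 0.429 without wild-type animal A, which stood apart. Position 4648 had 4.42, 4.43 and 4.98 in the heterozygous animals, against 5.74, 3.77, 4.67 and 5.01 in the wild-type animals, with full overlap and a difference of -0.187. These last 2 had the most positive statistics of the window, although both differences were below 0.

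Positions 4619 and 4620 are adjacent, and the first was well above 0 and the second the lowest of all. Position 4619 had 9.54, 8.05 and 9.05 in heterozygous animals E, F and G, against 12.5, 12.2, 9.88 and 11.2 in wild-type animals A, B, C and D, without overlap (77.5% of wild type, difference -2.58, 95% interval -4.4 to -0.771, limma adjusted p = 0.163). Position 4620 had -11.1, -9.77 and -10.6 in E, F and G, against -8.68, -9.96, -9.74 and -8.63 in A, B, C and D, the lowest values of the 68 sites, overlapping because F lay above B (-1.26, limma adjusted p = 0.216). Position 4325 had 3.14, 2.9 and 2.92 in the heterozygous animals, against 4.11, 4.92, 3.29 and 4.11 in the wild-type animals, without overlap and with C the nearest wild-type animal. Its means were 2.98 ± 0.134 in heterozygotes and 4.11 ± 0.666 in wild type, 72.6% of wild type (difference -1.12, limma adjusted p = 0.163). At 4280 the heterozygous mean was 7.47 ± 0.489 and the wild-type mean 8.36 ± 2.17, a gap of -0.885. For position 4288 the means were 11.4 ± 2.22 in heterozygotes and 12.8 ± 2.23 in wild type (-1.39). Both of these overlapped.

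Of the 2 positions in 5.8S, the weaker had a lower heterozygous mean and the stronger did not. 5.8S position 54 had 5.12, 4.03 and 4.45 in heterozygous animals E, F and G, against 6.67, 5.0, 5.22 and 5.37 in wild-type animals A, B, C and D. Animals F and G lay below every wild-type animal and E between B and C, and the difference was -1.03 (95% interval -2.15 to 0.0908, limma adjusted p = 0.283), or -0.66 without A. 5.8S position 68 had 18.8, 18.9 and 18.5 in the heterozygous animals, against 19.04, 18.7, 18.7 and 17.5 in the wild-type animals, where D was lowest and the rest lay close together. The difference was 0.252 (95% interval -1.07 to 1.57, limma adjusted p = 0.815), and it was -0.084 without wild-type animal D. Within each animal the value at 54 was 27.2%, 21.3% and 24.1% of that at 68 in E, F and G, against 35.03%, 26.8%, 27.9% and 30.7% in A, B, C and D, with B below E. The mean of both was 11.6 ± 0.296 in heterozygotes and 12.02 ± 0.605 in wild type, -0.388 apart, which was -0.11 without wild-type animal A and -0.12 after scaling by each animal's 18S mean.

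Set side by side, the order of the windows by level was not the same in the genotypes. In heterozygotes the first window was highest, and the other 3 means of 7.59, 7.44 and 7.2 followed in the order of the molecule, with each gap under the wider of the neighbours' SDs of 0.173, 0.137 and 0.401. In wild type the first window was followed by the fourth (8.34), the third (7.98) and the second (7.56), with SDs of 0.243, 0.658, 0.355 and 0.20 in that order. Only the gap between the third and the second exceeded the wider of the neighbours' SDs. These SDs are between animals, whereas every window was measured in the same animals. Within each wild-type animal the first window was above the fourth, and the third above the second. The fourth was above the third in A, B and D but not in C. Among the heterozygotes, F and G kept the order of the last 3 means and E reversed it. Over all 66 positions of 28S the mean was 8.09, 7.58 and 7.83 in heterozygous animals E, F and G, against 8.59, 8.18, 8.11 and 7.88 in wild-type animals A, B, C and D, overlapping, and with a heterozygous minus wild-type difference of -0.359 (-0.231 without heterozygous animal F, -0.226 without wild-type animal A and -0.18 after scaling by each animal's 18S mean). In 18S the difference of the genotype means was -0.23 over 39 sites, and the median difference per site was -0.276 in 28S, -0.155 in 18S and -0.272 over the whole table. Per window the median difference per site was -0.279, -0.205, -0.281 and -1.19 from the first to the fourth. Whether windows or rRNAs differ in the genotype effect was not tested.

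**Figure D2:**
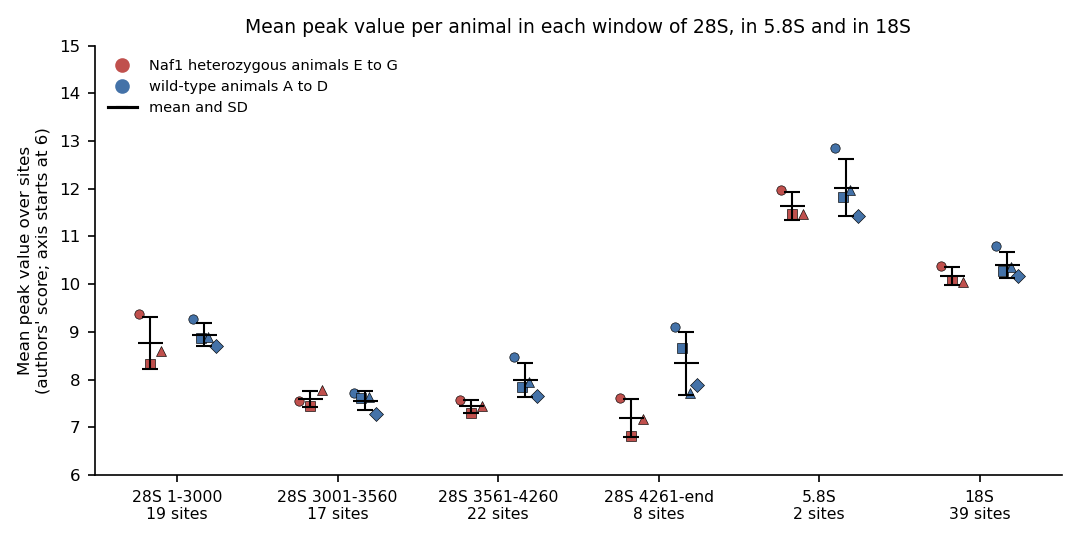
Mean peak value (authors' score, axis starting at 6) over the listed sites of each 28S window, of 5.8S and of 18S, per animal, with Naf1 heterozygous animals (red) left of wild-type animals (blue) and the mean and SD in black. Symbols are circle, square and triangle for E, F and G, and circle, square, triangle and diamond for A to D. The red and blue points separate in the third and the fourth window of 28S and overlap elsewhere.

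No position of the large subunit passed the test across the whole table. The test was limma on the peak values of the 3 heterozygous against the 4 wild-type animals at every position of the table, with p-values adjusted over the whole table by Benjamini-Hochberg. At an adjusted p under 0.05, 0 of the 68 positions were called, against 0% of the table, and the smallest adjusted p was 0.125. Before adjustment, 12 of the 68 had a p under 0.05 with a lower heterozygous mean, against 15.9% of the table, and 2 with a higher one, against 2.8% of the table. Of the 12, 8 lay in the third window (36.4% of its sites), 3 in the fourth (37.5%), 1 in the second (5.88%) and none in the first. They were 28S positions 3426, 3948, 3951, 4075, 4083, 4094, 4123, 4204, 4228, 4325, 4619 and 4620, and the 2 higher were 3615 and 4183. The exact permutation test per site gave 5 before adjustment and 0 after it, and 3 against 4 animals cannot give a two-sided exact p below 0.0286. With that floor, no site can pass after adjustment unless a large share of the table reaches it, so the 0 is uninformative. The count of 12 was 4 without heterozygous animal F, 7 without G and between 9 and 14 without any other animal, and over the sites with the pass mark it was 6.

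Counted without a model, every heterozygous animal lay below every wild-type animal at 8 of the 68 positions, against 14% of the table, and above at 1, against 1.87% of the table. The 8 were 28S positions 3426, 3948, 4083, 4123, 4204, 4228, 4325 and 4619. Of these, 5 lay in the third window (22.7% of its sites), 2 in the fourth (25%) and 1 in the second (5.88%). The 1 above was 2263 in the first. With fewer animals non-overlap is easier to reach, and the count of 8 was 19 without heterozygous animal E, 18 without wild-type animal B and 8 to 12 without any other. A lower heterozygous mean was seen at 49 of the 68, against 70.1% of the table. The share among the 68 was close to that of the table for each of these counts.

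**Figure D3:**
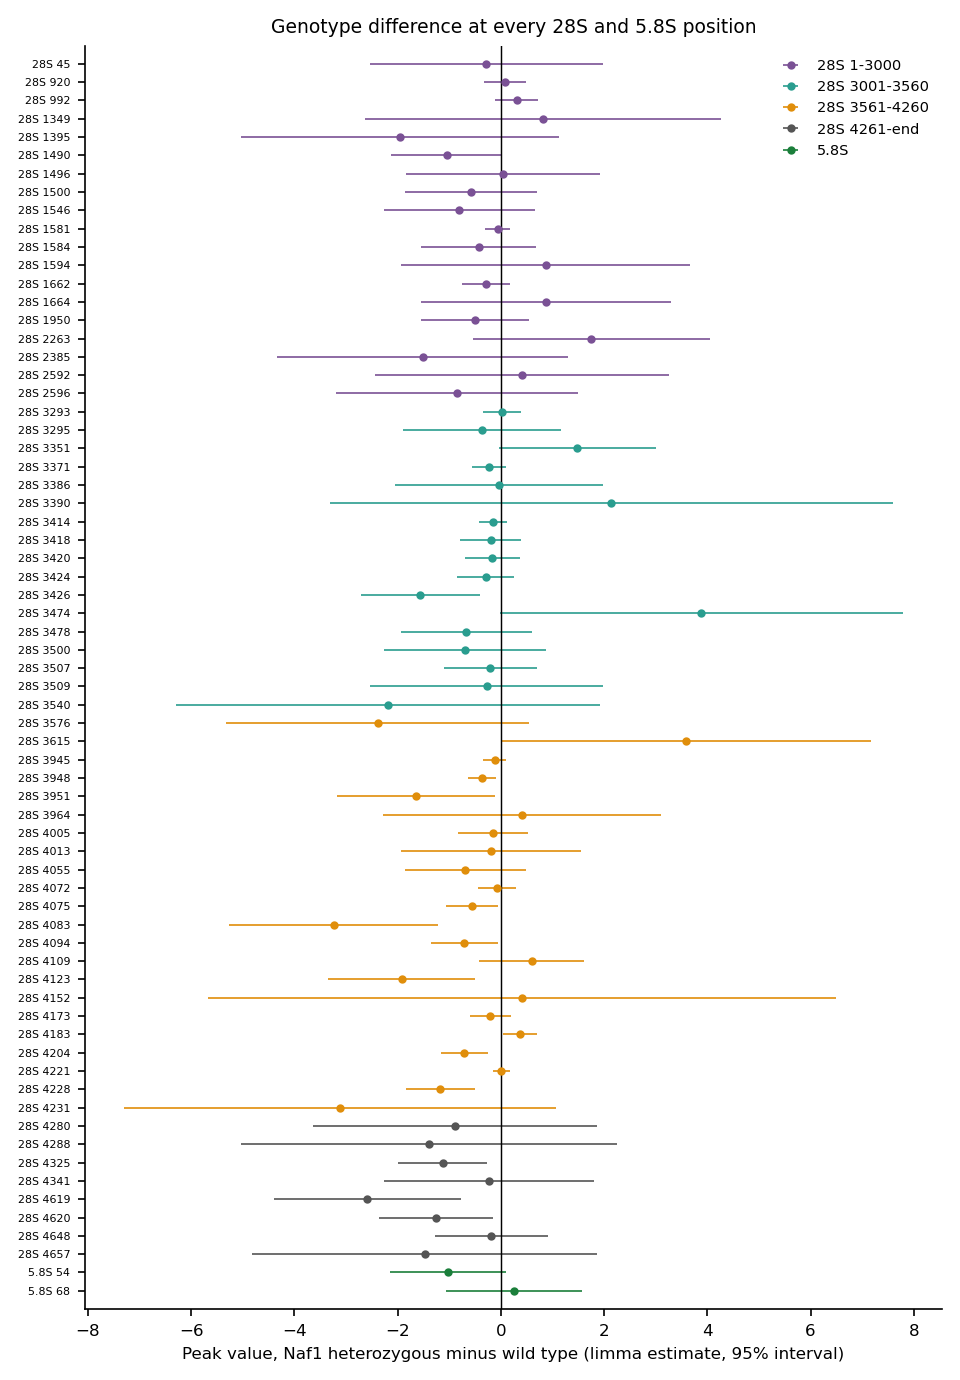
Naf1 heterozygous minus wild-type peak value (authors' score, horizontal axis) at each of the 68 positions, listed down the page along 28S and then 5.8S, with limma's 95% interval and coloured by window. Intervals of single sites, not adjusted for their number, lie wholly below 0 at 12 positions and wholly above 0 at 2, and all 8 points of the fourth window lie below 0.

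**Figure D4:**
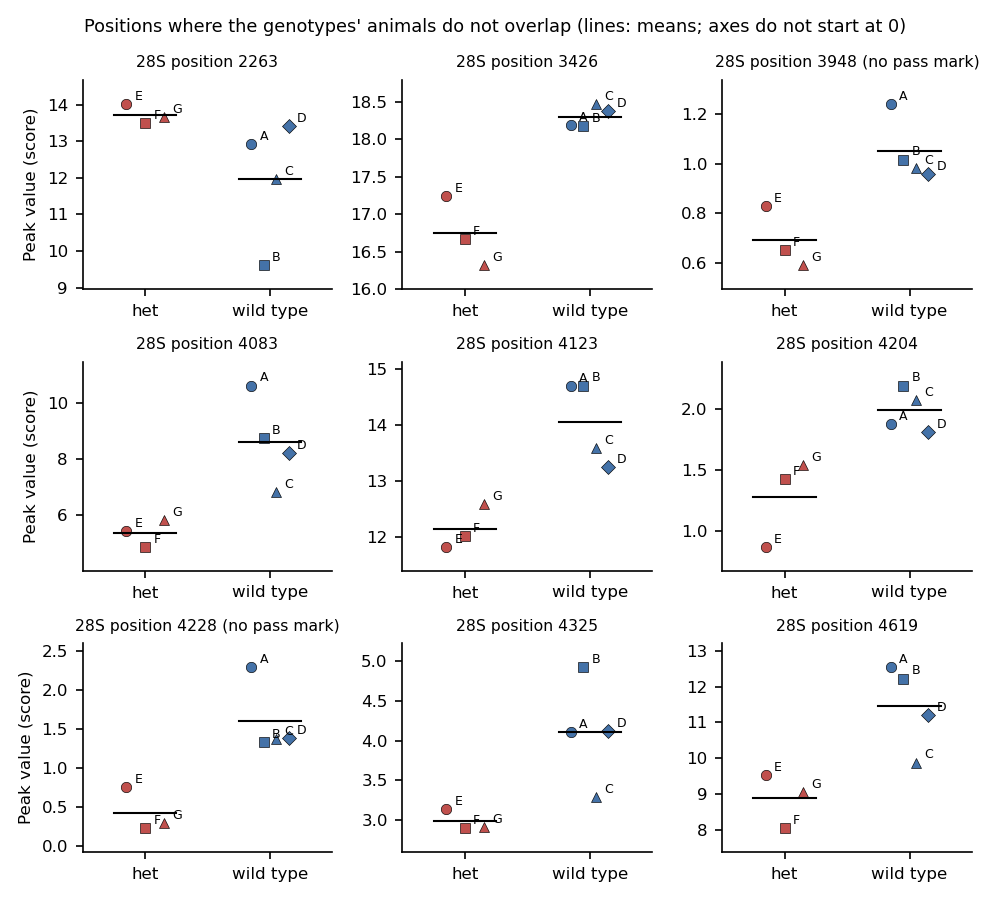
Peak values (authors' score) of single animals at the 9 positions where the genotypes did not overlap, heterozygotes (red, E to G) left of wild type (blue, A to D), with means as lines. Axes differ between panels and need not start at 0; heterozygotes are below wild type in 8 panels and above at position 2263.

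On a relative scale, positions with the pass mark lay on both sides of the wild-type mean. Among the 53 positions with the mark, the heterozygous mean was between 90% and 110% of wild type at 25, under 90% at 23 and above 110% at 5. The median was 93.8%, with a range from 62.4% at 28S position 4083 to 123% at 28S position 3615, and over the 29 such positions of 18S it was 97.3%. By window the median was 98.1%, 97.1%, 86.8% and 89.4% from the first to the fourth. Under 90% of wild type were 7 of 17 such sites in the first window, 2 of 12 in the second, 9 of 15 in the third and 4 of 7 in the fourth. The 95% interval left out a score reduction of 50% at 47 of the 53 and of 25% at 26, taking the wild-type mean as free of error, and at the rest a reduction of that size was not resolved with 7 animals.

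Single animals differed in their level across 28S within each genotype. Among the heterozygotes, F was the lowest of all 7 animals at 23 of the 66 positions, G at 10 and E at 5, and E was the highest at 9, F at 5 and G at 1. Among the wild-type animals, A was the highest at 26, B at 13, D at 8 and C at 4, and the lowest at 2 (A), 14 (B), 9 (D) and 3 (C). At the 51 positions of 28S with the pass mark, the median ratio to the mean of the 7 animals was 98.6%, 92.2% and 95.04% in E, F and G, against 108%, 103%, 99.3% and 97.96% in A, B, C and D. Heterozygous animal E thus lay within the wild-type range on this measure, above D, while F and G lay below it. In 18S animal A was likewise the most often highest, at 18 of 39 positions, and F the most often lowest, at 11. Read depth, which could differ between libraries, is not known from the table, and its part in these levels was not tested. The profile over the 68 positions was alike in all animals, with Pearson r from 0.940 to 0.992 over the 21 pairs of animals, a description over positions that share each library. The 3 positions of 18S whose values over the 7 animals followed the mean of 28S most closely were 823 (Pearson r 0.901), 1244 (0.90) and 1238 (0.847), the last 2 at levels near 0.

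Listed positions that lie close together usually had unequal levels, and the 3′ member of the pair was usually the higher. In 28S, 17 pairs of successive listed positions were at most 5 nt apart, and the mean over the 7 animals was higher at the 3′ member in 13 and at the 5′ member in 4. The order was the same in all 7 animals for 16 of the 17, the exception being 3386 and 3390, where it held in 6. Position 3293 averaged 2.35 and 3295, 2 nt further, 12.8. Positions 3424 and 3426 averaged 4.67 and 17.6, 3507 and 3509 averaged 7.02 and 18.1, and 4228 and 4231 averaged 1.10 and 17.1. In each of these the 3′ position was the stronger by a wide margin. The reverse order was found at 1496 and 1500 (18.2 and 3.04), 2592 and 2596 (9.36 and 4.02), 3414 and 3418 (-0.268 and -1.10) and 4619 and 4620 (10.4 and -9.79). The 30 positions of 28S with a listed neighbour within 5 nt had a median level of 3.53, and 19 carried the pass mark, against 10.1 and 32 among the 36 without one. In 18S the 3′ member was higher in 8 of 9 such pairs. Positions in a pair are read from the same molecules and libraries, so they are not independent, and what sets the order was not tested. Some pairs also share a position, as in the runs 3414, 3418, 3420, 3424 and 3426, and 3945, 3948 and 3951.

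**Figure D5:**
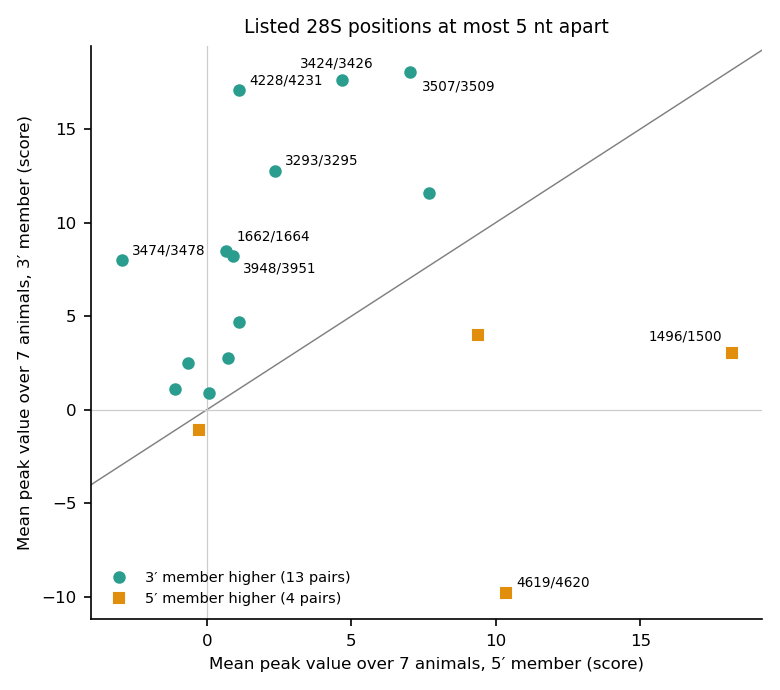
Mean peak value over the 7 animals (authors' score) at the 3′ member (vertical axis) against the 5′ member (horizontal axis) of the 17 pairs of listed 28S positions at most 5 nt apart, with the diagonal marking equal levels. The 13 pairs above the diagonal (circles) have the higher value at the 3′ member, and the 4 below it (squares) include 4619 and 4620, with 10.4 and -9.79.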

How the data were processed

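Pseudo-seq maps pseudouridine through CMC, a reagent that stays bound to pseudouridine and stops reverse transcriptase there. Spleen RNA of 3 Naf1 heterozygous and 4 wild-type mice was fragmented, treated with or without CMC, reverse transcribed, size selected and sequenced, per the labels' protocols. Bowtie and build mm10 are named in the submitters' processing notes. The authors deposited 1 score (peak value) per animal and position, with a pass mark for each position; the formula, scaling and read filters behind the score are not given in the sources used here, and no read counts stand beside it. Depth is therefore unknown, no counting interval can be given, and a score cannot be turned into a modified fraction. Columns were assigned to genotypes by name; the letters A to G are names only, as the labels number the animals differently. Nothing says whether animals shared litters or preparation days.

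The scores were used as deposited, unlogged, since some are below 0. Genotypes were compared with limma 3.58.1 in R 4.3.3 (lmFit and eBayes with a trend) at every position of the table, with two-sided p-values adjusted by Benjamini-Hochberg over the whole table and a threshold of 0.05; intervals are 95% limma intervals of single sites. The script was tested on simulated data, with planted changes large beside the spread between animals and with independent noise. That test does not show how often differences of the size seen here would be found. SDs are between animals. No values were equal between animals. Values in every animal are given for both 5.8S positions and, per window, for the 2 highest and the lowest level and the 2 most negative and 2 most positive statistics. Outside that rule they are also given for 28S position 3390, and for 3948, 4123 and 4204 without means and SDs. All other positions have means with SDs. The members, windows and lists were chosen with earlier results of these data known. Alternatives were log2 of the value plus 1, with values below 0 set to 0, and scaling by each animal's median or 18S mean. Others were filters on sites, limma without trend, robust or weighted, an exact permutation test, and leaving out each animal.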

Additional observations from a re-analysis of the deposited data

Results flagged for a closer look

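At 5 of the 68 positions 1 wild-type animal stood far from the other wild-type animals, by Dixon's test at 95% among the 4 of them, where chance gives about 1 in 20, or 3.4 of 68. Animal A stood apart at 3 of the 5. At 28S position 4228 it had 2.29, against 1.33 to 1.39 in the other wild-type animals, and this is the position with the lowest adjusted p. At 28S position 4341 animal A had 17.6, against 14.7 to 15.1 in the others. At 28S position 3418 it had -0.681, against -1.15 to -1.11. Animal B had 6.07 at 28S position 3500, against 4.03 to 4.22, and animal D had 12.7 at 28S position 1594, against 15.1 to 15.2. The 3 heterozygous animals are too few for this test.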

How the results depend on the processing

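No site of 28S or 5.8S passed an adjusted p under 0.05 in any of the 17 alternatives, and the smallest adjusted p ran from 0.0518 to 0.374. In the exact test, the floor on p left hardly any room to pass after adjustment. The count of sites at an unadjusted p under 0.05 with a lower heterozygous mean, 12 in the reported fit, was 7 over sites with a mean of 1 or more, 6 over sites with the pass mark, 4 without sites within 5 nt of another and 5 by the exact permutation test, and 4 to 14 leaving out 1 animal; fewer sites were tested in the first 3. The count with a higher mean, 2, was 1 on the log2 scale, over sites with a mean of 1 or more, over sites with the pass mark and without the trend, 0 by the exact test, and 0 to 3 leaving out 1 animal. The count of sites with all heterozygous below all wild-type animals, 8, was 4 without sites within 5 nt of another and 8 to 19 leaving out 1 animal, and the count above, 1, was 1 to 4. Without sites within 5 nt of another, 33 sites were at 1 or more in every animal and 35 above 0. Using each animal's median over sites in place of the mean, the difference was 1.32 in the first window of 28S and -1.73 in the fourth. In the second it was -0.217 over sites with a mean of 1 or more, -0.222 with the pass mark, -0.41 without close neighbours and -0.213 without its site of largest difference. On the log2 scale it was -0.14 in the fourth window, and in the third it was -0.16. Leaving out 1 animal, the windows ran from -0.469 to 0.0527, from -0.0695 to 0.103, from -0.65 to -0.373 and from -1.35 to -0.888 along the molecule. Among the alternatives that alter a site's difference (log2 values, both scalings, weights per animal and leaving out an animal), the direction changed in 1 or more at 23 sites and in none of those that could be fitted at 45; the site filters, the other limma settings and the exact test leave the difference itself as it is. Scaling by each animal's median turned the difference to -0.293 at 28S position 1496, -0.0313 at 28S position 3293, -0.0486 at 28S position 3964, -0.0962 at 28S position 4152, -0.122 at 5.8S position 68. Scaling by each animal's 18S mean turned it to 0.013 at 28S position 45, 0.166 at 28S position 3386, 0.159 at 28S position 3509, 0.345 at 28S position 4013, 0.126 at 28S position 4341. Weights per animal turned it to -0.261 at 28S position 1496, 0.537 at 28S position 3386, -0.216 at 28S position 4152, 0.0574 at 28S position 4341. On the log2 scale it was 0.00886 at 28S position 3386. The 6 sites below 0 in every animal were left out of its site fits but entered the window means as 0. Leaving out 1 animal at a time, the difference took both signs at these sites: from -1.25 to 0.409 at 28S position 45, from -0.0419 to 0.181 at 28S position 920, from -0.409 to 0.50 at 28S position 1496, from -0.313 to 1.58 at 28S position 1594, from -0.169 to 1.52 at 28S position 1664, from -0.678 to 1.24 at 28S position 2592, from -1.79 to 0.211 at 28S position 2596, from -0.0823 to 0.0981 at 28S position 3293, from -0.613 to 0.0212 at 28S position 3295, from -0.581 to 0.627 at 28S position 3386, from -0.386 to 0.0841 at 28S position 3418, from -0.277 to 0.00969 at 28S position 3420, from -0.452 to 0.0405 at 28S position 3507, from -0.894 to 0.502 at 28S position 3509, from -0.0182 to 1.3 at 28S position 3964, from -0.379 to 0.000925 at 28S position 4005, from -0.911 to 0.484 at 28S position 4013, from -0.165 to 0.00898 at 28S position 4072, from -1.27 to 1.99 at 28S position 4152, from -0.00177 to 0.0153 at 28S position 4221, from -0.531 to 0.429 at 28S position 4341, from -0.53 to 0.129 at 28S position 4648, from -0.084 to 0.439 at 5.8S position 68. The cause of these changes was not tested. No paired analysis was possible because the genotypes share no replicate numbers. Depth is unknown, and 7 animals limit the precision.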
